A study of Mus musculus with 8 samples.

Results

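The genes described here are 50 immediate early and feedback genes of the mouse, a list set by gene name with earlier results of these data known. They were AP-1 subunits, EGR, NR4A and KLF transcription factors, mRNA decay factors, MAP kinase phosphatases, inhibitors of NF-kappaB, IER genes and regulators of stress and G protein signals. All 50 were found among the 55487 genes of the deposited tables. Of these, 40 reached 1 TPM (the share of a gene's transcripts among all, corrected for length) in at least 2 of 8 libraries and were tested. Not tested were Fosb, Egr1, Egr2, Egr3, Dusp10, Atf3, Nr4a2, Nr4a3, Klf4 and Per3, each under 1 TPM in all 8 libraries. A further 6 members, Fos, Ier5, Dusp2, Nr4a1, Klf2 and Maff, were tested only through basophil libraries and stayed under 1 TPM in every pre-Baso library.

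RNA was sequenced from 2 bone marrow populations of C57BL/6J mice in which a floxed Nfil3 gene had been removed (deficient) and from littermates labelled wild type (control). Nfil3 encodes a basic leucine zipper repressor. Cells were sorted as lineage-negative, CD34-negative, ckit-negative and CD200R3-positive: basophils stained at an intermediate level with MAR1, an antibody against the IgE receptor alpha chain, and pre-Baso, the earlier stage, at a high level. The groups were deficient basophils, control basophils, deficient pre-Baso and control pre-Baso, with 2 libraries each, called biological duplicates by the submitters. The Cre driver, the age of the mice and the time between killing and lysis are not given in the sources used here, and no stimulus is named. Nfil3 stood at 0 and 0.624 TPM in deficient pre-Baso against 6.61 and 7.65 TPM in control pre-Baso, and at 0.853 and 1.32 TPM in deficient basophils against 20.5 and 22.5 TPM in control basophils (log2 difference over both populations -3.05; exact permutation test, two-sided, 70 splits, p = 0.0286, the smallest it allows). Mcpt8, a granule protease of basophils named here after its values were seen, was at 1.98 to 6.04 TPM in the 4 deficient libraries and at 969 to 7888 TPM in the 4 control libraries.

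Immediate early genes are transcribed within minutes of a signal, without new protein synthesis, because the factors that drive them (SRF, CREB and NF-kappaB) are already in the cell. Their products fall into activators, such as FOS, JUN and EGR1, that carry the signal to later genes, and feedback inhibitors that end it: DUSP phosphatases remove phosphate from MAP kinases, NFKBIA and TNFAIP3 hold NF-kappaB back, and ZFP36 proteins bind AU-rich elements and send cytokine messages to decay. Basophils receive such signals through the IgE receptor and the IL-3 receptor and answer with cytokines, among them IL-4. Many of these genes also respond when cells are taken out of tissue and sorted, so their level in sorted cells need not be that in the animal.

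The start regions of 40 of the 50 members were matched in the RefSeq promoter table (build GRCm38.p6), which gives 300 bases per start site, 250 before it and 50 after. Each of 5 windows is shown 5′ to 3′ on the strand of its gene because it holds a recognition sequence of a factor named above, in capitals. Zfp36 (chr7:28379179-28379478, minus strand) and Dusp5 (chr19:53528895-53529194, plus strand) hold CArG boxes, the element of SRF; Btg2 (chr1:134079106-134079405, minus strand) holds TGACGTCA, the full CREB and ATF element. Nfkbia (chr12:55492598-55492897, minus strand) holds a kappaB site, and Per3 (chr4:151044616-151044915, minus strand) holds TTATGTAA, the element bound by NFIL3, at 2 places.
Zfp36: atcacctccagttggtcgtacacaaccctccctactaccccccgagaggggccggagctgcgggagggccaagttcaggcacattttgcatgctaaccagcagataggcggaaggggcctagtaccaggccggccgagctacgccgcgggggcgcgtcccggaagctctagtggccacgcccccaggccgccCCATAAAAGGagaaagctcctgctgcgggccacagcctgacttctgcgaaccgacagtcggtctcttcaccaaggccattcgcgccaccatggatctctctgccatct
Dusp5: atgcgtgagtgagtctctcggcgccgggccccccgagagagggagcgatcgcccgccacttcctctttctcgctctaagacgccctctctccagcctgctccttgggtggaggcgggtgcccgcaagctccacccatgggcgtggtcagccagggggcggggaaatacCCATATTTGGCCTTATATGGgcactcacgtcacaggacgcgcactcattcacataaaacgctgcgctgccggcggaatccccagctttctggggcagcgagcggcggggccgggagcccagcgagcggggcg
Btg2: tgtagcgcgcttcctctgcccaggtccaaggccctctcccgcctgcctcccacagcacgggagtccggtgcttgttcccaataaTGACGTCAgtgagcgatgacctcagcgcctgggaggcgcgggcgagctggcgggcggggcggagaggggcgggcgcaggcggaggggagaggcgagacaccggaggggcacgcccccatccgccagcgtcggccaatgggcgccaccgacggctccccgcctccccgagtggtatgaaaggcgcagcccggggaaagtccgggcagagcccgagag
Nfkbia: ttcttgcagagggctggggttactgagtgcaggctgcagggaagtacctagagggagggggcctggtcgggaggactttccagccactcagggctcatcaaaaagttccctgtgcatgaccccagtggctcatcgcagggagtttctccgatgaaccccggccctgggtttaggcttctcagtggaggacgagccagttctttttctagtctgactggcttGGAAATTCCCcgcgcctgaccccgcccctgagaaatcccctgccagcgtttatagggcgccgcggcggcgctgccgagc
Per3: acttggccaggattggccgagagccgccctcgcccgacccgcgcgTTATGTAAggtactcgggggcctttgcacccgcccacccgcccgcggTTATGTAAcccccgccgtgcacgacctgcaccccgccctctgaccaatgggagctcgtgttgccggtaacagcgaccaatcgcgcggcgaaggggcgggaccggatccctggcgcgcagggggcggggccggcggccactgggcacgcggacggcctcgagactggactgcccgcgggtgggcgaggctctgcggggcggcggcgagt
The capitals lie 58 to 49 bases upstream of the start in Zfp36, 82 to 73 and 72 to 63 bases in Dusp5, 166 to 159 bases in Btg2, 29 to 20 bases in Nfkbia, and 205 to 198 and 158 to 151 bases in Per3.

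Each motif was searched on both strands in the windows of all 27025 genes of that table. A CArG box was in 3 of 40 members (7.50%; Zfp36, Dusp5 and Egr2), against 1.81% of all genes. TGACGTCA was in 5 members (12.5%; Btg2, Dusp1, Maff, Nfkbid and Ppp1r15a), against 2.03% of all genes. A kappaB site was in 12 members (30.0%), among them Nfkbia, Nfkbie, Nfkbid, Tnfaip3 and Rel, against 9.55% of all genes. GCGNGGGCG, the element of EGR proteins, was in 14 members (35.0%), against 6.27% of all genes, and TGANTCA, the AP-1 element, was in 4 of 40 members, against 8.97% of all genes. TTANGTAA was in 1 member (2.50%), Per3, against 2.72% of all genes. A gene was counted if any of its windows matched, and the 40 members had 57 windows, against 32851 for all genes. By window, the shares in members and in all were 10.5% and 1.63% for CArG boxes and 8.77% and 1.79% for TGACGTCA. They were 21.1% and 8.46% for kappaB sites and 24.6% and 5.55% for GCGNGGGCG. For TGANTCA they were 7.02% and 7.81%, and for TTANGTAA 1.75% and 2.32%. TGACGTCA reads the same on both strands, and kappaB sites can overlap each other in C-rich stretches. A match describes these letters and shows neither binding nor a cause. The windows of Cd69, Egr1, Egr3, Ier2, Klf10, Myc, Nfkbiz, Rgs1, Trib1 and Zfp36l2 were not used here.

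Libraries held 271.7 to 398.0 megabases assigned to annotated transcripts. Of these bases, 52.9% to 57.2% lay on protein-coding genes and 28.9% to 33.1% on rRNA genes. The first libraries of deficient basophils and of control basophils stood apart in RNA of other cell types. Summed over 8 dendritic cell markers they held 609 and 667 TPM, against 48.7 to 74.7 TPM in the other 6 libraries; Cd74 led the list. The 14 monocyte and macrophage markers, led by Lyz2, summed to 832 and 412 TPM in deficient basophils, 913 and 355 TPM in control basophils, 281 and 266 TPM in deficient pre-Baso, and 179 and 206 TPM in control pre-Baso. The 12 neutrophil markers, led by S100a8 and S100a9, summed to 2258 and 1365 TPM in deficient basophils, 2551 and 1455 TPM in control basophils, 1241 and 895 TPM in deficient pre-Baso, and 913 and 800 TPM in control pre-Baso. The 9 eosinophil markers, led by Prg2, reached 2665 TPM in the first control basophil library, against 15.8 to 194 TPM in the other 7. Of tested markers, 4 of 12 neutrophil and 1 of 11 monocyte genes were called higher in basophils of deficient mice (6.79% of all genes tested rose). In control mice 8 of 12 and 4 of 11 were called higher (12.6% of all genes tested rose). The 9 erythroid markers, led by Hbb-bs, summed to 163 and 135 TPM in deficient basophils, 186 and 144 TPM in control basophils, 37.1 and 123 TPM in deficient pre-Baso, and 41.1 and 49.5 TPM in control pre-Baso. The 14 basophil markers, led by Prss34, summed to 8727 and 12782 TPM in deficient basophils, 7323 and 9399 TPM in control basophils, 25630 and 22368 TPM in deficient pre-Baso, and 29634 and 36934 TPM in control pre-Baso. Mcpt8 is on this list, so the sums of the genotypes are not directly comparable. Its log2 difference, deficient minus control, was -10.2 in pre-Baso and -8.45 in basophils. Of the 14 basophil markers, 3 were called higher and 3 lower in basophils of deficient mice (6.79% of all genes tested rose and 4.11% fell). In control mice 4 were higher and 4 lower (12.6% of all genes tested rose and 10.0% fell). Prss34, Cpa3 and Fcer1a were lower in both genotypes, and Il4 was higher in both. Hdc and Itga2, named here after their values were seen, were higher in control mice. The 8 mast cell markers found summed to at most 3.03 TPM. Myeloid cells of these other types also express immediate early genes, and their part in the results was not tested. In bulk RNA, fewer cells of a type and less RNA per cell cannot be told apart.

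The members together made up a small part of the message, and more of it in basophils. They summed to 662 and 625 TPM in deficient basophils and 836 and 649 TPM in control basophils, against 319.6 and 320.3 TPM in deficient pre-Baso and 311 and 350.4 TPM in control pre-Baso. As a share of the TPM of protein-coding genes this was 0.314% to 0.397% in basophils and 0.156% to 0.168% in pre-Baso. A few genes carried most of it: Nfkbia, Ier2, Ier3, Zfp36l2, Rgs2 and Junb made up 58.5% to 67.8% of the members' TPM in every library. At 5 TPM or more in every library of the stage were 17 members in basophils and 11 in pre-Baso. Some genes known as first responders were among the lowest: Fos, Fosb, Egr1, Egr2, Egr3, Atf3, Nr4a1, Nr4a2 and Nr4a3 did not pass 1.41 TPM in any library. Others, such as Ier2 and Junb, were among the most abundant members named above.

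**Figure D1:**
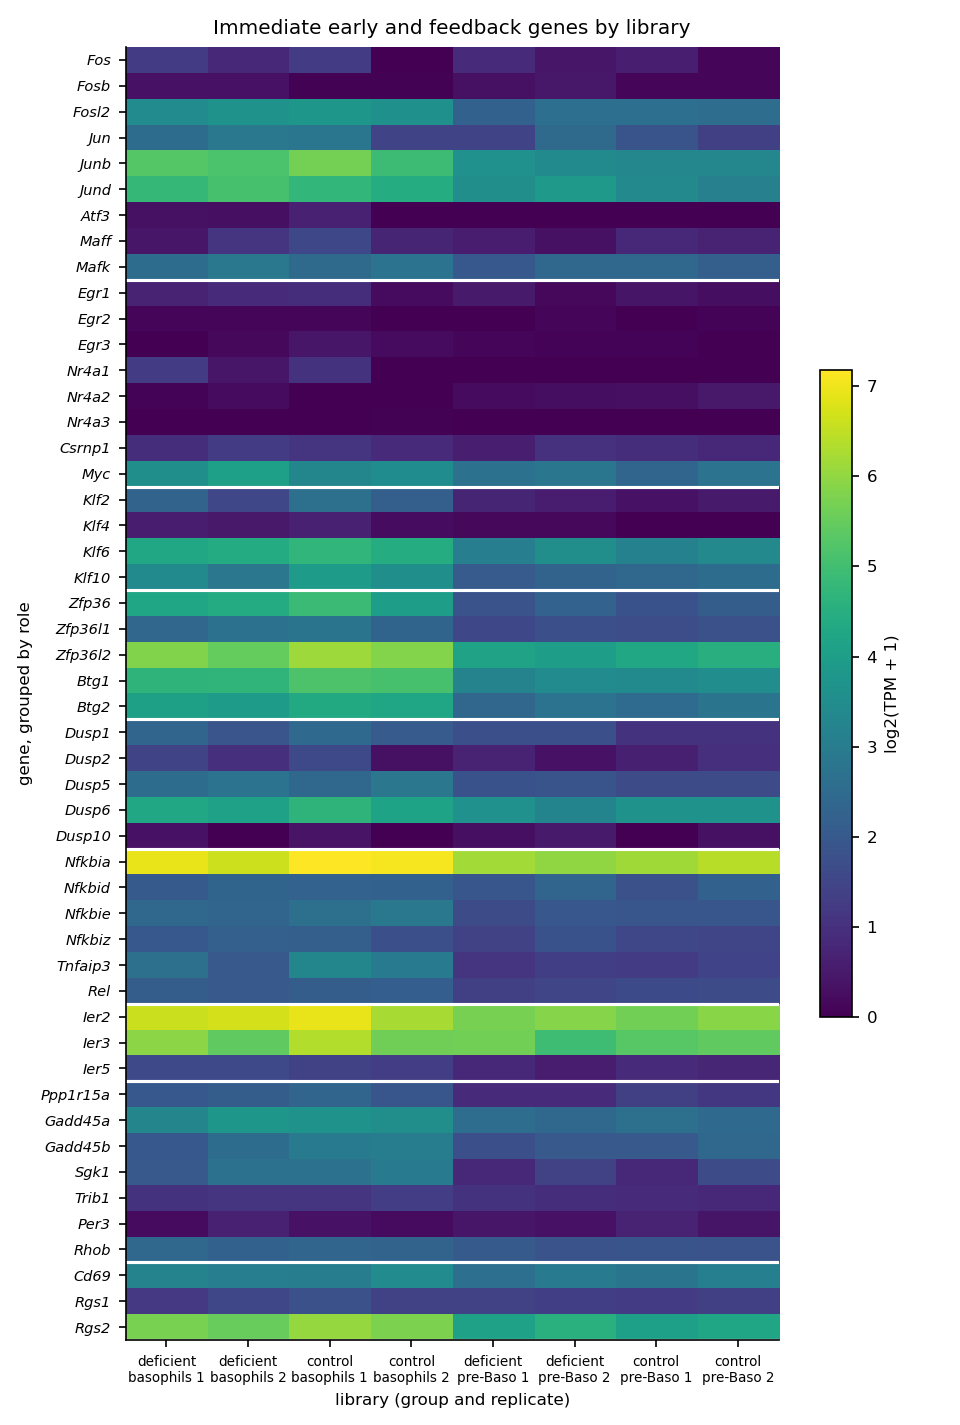
Level of each of the 50 members in each library, as log2(TPM + 1) on the colour scale, with libraries in columns and genes in rows, grouped by role between white lines. Basophil columns (left 4) are brighter than pre-Baso columns (right 4) in rows such as Zfp36, Btg1 and Junb, while Fosb, the EGR genes and Nr4a3 are dark in every column.

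Between the stages, more than 20 of the 40 tested members were higher in the later one and 0 were lower in either genotype. In deficient mice, 21 of the 40 tested members rose in basophils against pre-Baso and 0 fell (limma, adjusted p under 0.05), where 6.79% of all 12511 genes tested rose and 4.11% fell. In control mice, 24 of 40 rose and 0 fell, where 12.6% of all genes tested rose and 10.0% fell. Differences are of log2(TPM + 1), which understates changes of low genes, and are given with their SE. The median log2 difference of the tested members was 0.83 in deficient and 0.82 in control mice, against 0.10 and 0.08 over all genes tested. Positive were 39 of 40 members in deficient mice (59.6% of all genes tested) and 40 of 40 in control mice (56.6% of all genes tested). These counts include the 6 members tested only through basophil libraries, an entry that favours a positive difference. Both basophil libraries lay above both pre-Baso libraries in 32 members in deficient mice (36.6% of all genes tested) and in 33 members in control mice (36.4% of all genes tested). Both basophil libraries lay below both pre-Baso libraries in 0 members in either genotype (21.7% of all genes tested in deficient and 26.3% in control mice). An unadjusted p under 0.05 was reached by 26 members in deficient mice (28.1% of all genes tested) and by 27 in control mice (36.2% of all genes tested). Called in both genotypes were 19 members. A further 5 were called in control mice alone (Dusp1, Dusp6, Nfkbie, Gadd45b and Sgk1), 2 in deficient mice alone (Ier5 and Rel), and 14 in neither. Of the members called in at least 1 genotype, Klf2 and Ier5 had passed the filter through basophils only.

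**Figure D2:**
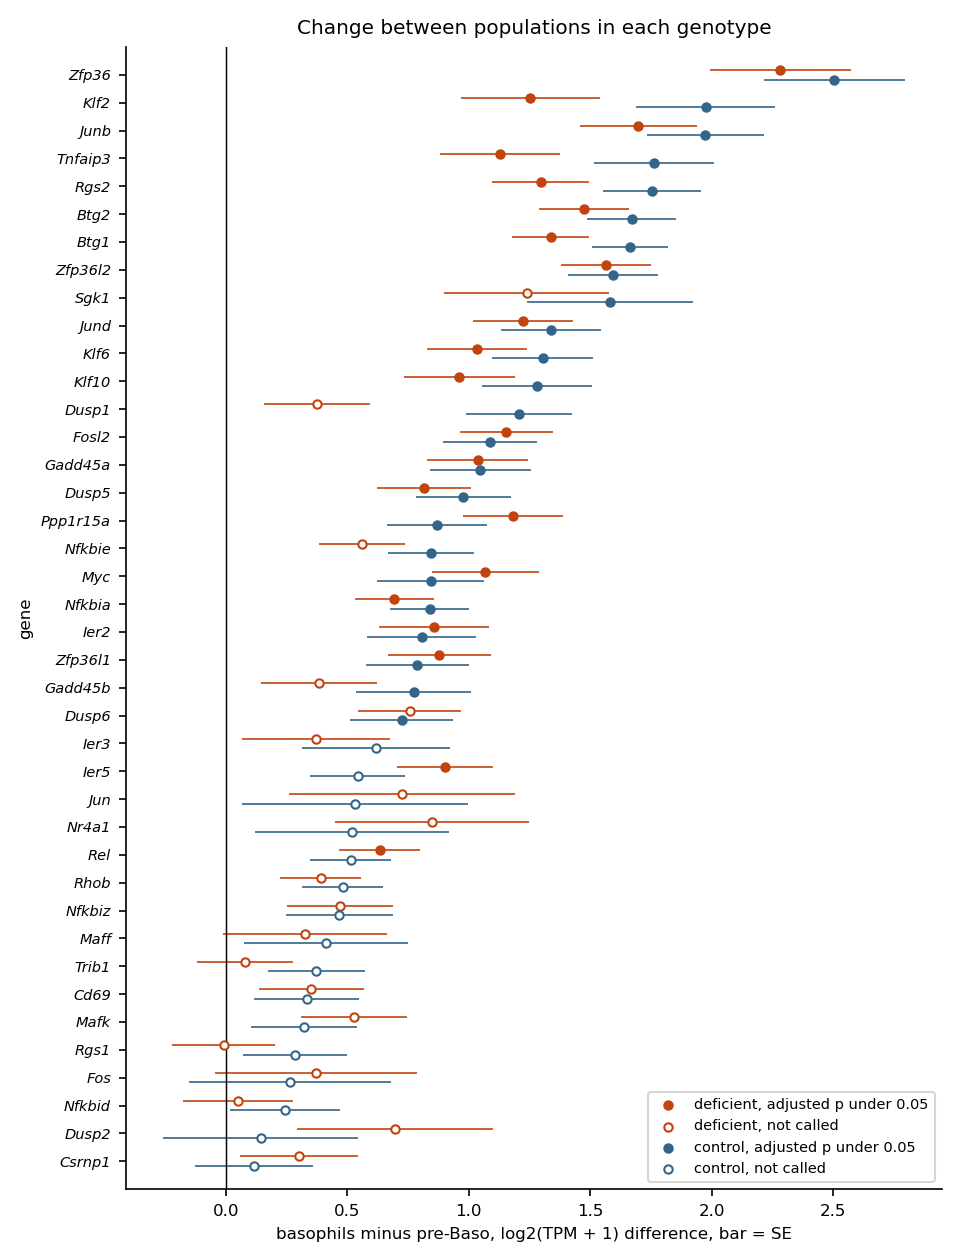
Difference between basophils and pre-Baso on the log2(TPM + 1) scale for each of the 40 tested members, with its SE as a bar; deficient mice are drawn above control mice in each row, and filled points have an adjusted p under 0.05. Nearly all points lie right of 0, with Zfp36 farthest at 2.28 in deficient and 2.51 in control mice and Rgs1 at -0.01 in deficient mice.

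Leaving out libraries changed how many members were called more than how large the differences were. Calls between stages over all genes tested fell as well under each omission, with counts in the last section. The loss of calls was therefore not particular to the members. The share of all genes with an unadjusted p under 0.05 is not given for these omissions. Without the first basophil library of both genotypes, a comparison chosen after seeing the marker levels, 0 members were called in deficient mice (25 had an unadjusted p under 0.05 in limma) and 12 in control mice, while the median log2 difference stayed at 0.75 and 0.72 over the same 40 genes. At that setting 4 genes in all were called in deficient mice and 1032 in control mice, against 1363 and 2832 with all libraries. Each genotype then rests on a single basophil library, whose spread is assumed to equal that of the other groups. Without the first deficient pre-Baso library, 0 members were called in deficient mice (22 had an unadjusted p under 0.05) with a median of 0.79. Without the second, 9 were called, and without the first or the second deficient basophil library 7 and 9. In control mice 14 members were called without the first control pre-Baso library, and 17 to 22 without any other. Called in control mice whichever single library was left out were 13 members: Btg1, Btg2, Dusp1, Fosl2, Junb, Jund, Klf2, Klf6, Klf10, Rgs2, Tnfaip3, Zfp36 and Zfp36l2. In deficient mice 0 members were called under every such omission.

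All 5 mRNA decay and antiproliferative factors rose in both genotypes. Counts by role, here and in the next paragraphs, stand beside the shares of all genes tested that rose. These were 6.79% in deficient and 12.6% in control mice. A single call in so small a group cannot be set apart from these shares. Zfp36 (tristetraprolin), which binds AU-rich elements of cytokine messages and recruits the deadenylase complex, stood at 18.1 and 20.2 TPM in deficient basophils against 2.58 and 3.79 TPM in deficient pre-Baso, and at 28.8 and 15.4 TPM in control basophils against 2.47 and 3.35 TPM in control pre-Baso. The lowest basophil library was at 15.4 TPM and the highest pre-Baso library at 3.79 TPM (log2 difference 2.28 ± 0.29 in deficient mice, adjusted p = 0.00508, and 2.51 ± 0.29 in control mice, adjusted p = 0.00102). Its relative Zfp36l2 stood at 55.3 and 43.3 TPM in deficient basophils against 16.7 and 15.1 TPM in deficient pre-Baso, and at 68.7 and 56.4 TPM in control basophils against 18.3 and 21.7 TPM in control pre-Baso. The groups of the 2 stages did not overlap in either genotype (log2 difference 1.56 ± 0.19 in deficient mice, adjusted p = 0.0047, and 1.59 ± 0.19 in control mice, adjusted p = 0.00103). Zfp36l1, the third member of that family, was low, at 3.94 to 5.72 TPM in basophils of either genotype and 1.92 to 2.46 TPM in pre-Baso (log2 difference 0.88 ± 0.21 in deficient mice, adjusted p = 0.0358, and 0.79 ± 0.21 in control mice, adjusted p = 0.031).

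Btg1 and Btg2, antiproliferative proteins that bind the same deadenylase complex, varied little between replicates. Btg1 stood at 24.3 and 25.2 TPM in deficient basophils against 8.34 and 10.1 TPM in deficient pre-Baso, and at 34.9 and 32.9 TPM in control basophils against 9.58 and 10.4 TPM in control pre-Baso. Every basophil library was higher than every pre-Baso library (log2 difference 1.34 ± 0.16 in deficient mice, adjusted p = 0.0047, and 1.66 ± 0.16 in control mice, adjusted p = 0.000547). Btg2, whose start region is shown above, stood at 15.8 and 14.8 TPM in deficient basophils against 4.2 and 5.64 TPM in deficient pre-Baso, and at 19.6 and 18.1 TPM in control basophils against 4.69 and 5.8 TPM in control pre-Baso. Here too the stages did not overlap (log2 difference 1.47 ± 0.18 in deficient mice, adjusted p = 0.00505, and 1.67 ± 0.18 in control mice, adjusted p = 0.000841). The summed level of the 5 decay factors was 118 and 109 TPM in deficient basophils against 33.7 and 37.0 TPM in deficient pre-Baso, and 158 and 127 TPM in control basophils against 37.3 and 43.8 TPM in control pre-Baso.

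**Figure D3:**
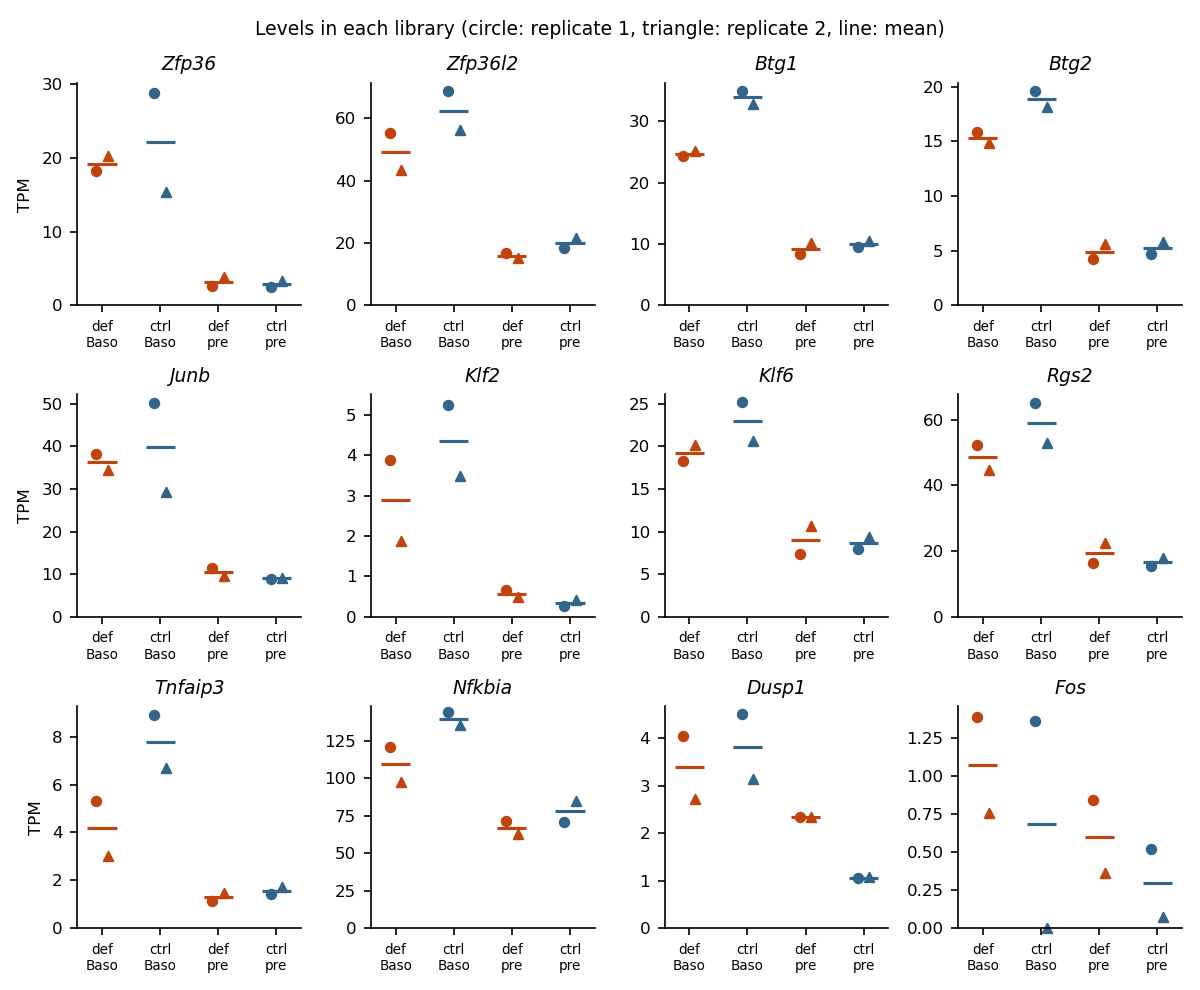
TPM of 12 members in each library, with the mean of each group as a line; columns are deficient (def) and control (ctrl) basophils (Baso) and deficient and control pre-Baso (pre), deficient in orange and control in blue. Zfp36 lies at 15.4 to 28.8 TPM in basophils and 2.47 to 3.79 TPM in pre-Baso, while Fos is at 1.39 TPM or less in all libraries.

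Of 7 tested AP-1 subunits and related factors, 3 rose in both genotypes: Junb, Jund and Fosl2. The shares of all genes tested that rose were 6.79% in deficient and 12.6% in control mice. Junb, a JUN family subunit that can oppose JUN, stood at 38.3 and 34.4 TPM in deficient basophils against 11.4 and 9.6 TPM in deficient pre-Baso, and at 50.1 and 29.4 TPM in control basophils against 8.97 and 9.08 TPM in control pre-Baso. The first control basophil library was highest, and no basophil library was as low as any pre-Baso library (log2 difference 1.70 ± 0.24 in deficient mice, adjusted p = 0.00743, and 1.97 ± 0.24 in control mice, adjusted p = 0.00129). Jund stood at 26.5 and 33.2 TPM in deficient basophils against 10.6 and 13.8 TPM in deficient pre-Baso, and at 26 and 20.7 TPM in control basophils against 9.35 and 7.82 TPM in control pre-Baso. Its 2 stages were also separate (log2 difference 1.22 ± 0.21 in deficient mice, adjusted p = 0.0117, and 1.34 ± 0.21 in control mice, adjusted p = 0.00324). Fosl2, the FOS-family subunit with the highest level here, stood at 10.05 to 12.8 TPM in basophils and 3.68 to 5.19 TPM in pre-Baso (log2 difference 1.15 ± 0.19 in deficient mice, adjusted p = 0.0115, and 1.09 ± 0.19 in control mice, adjusted p = 0.0061).

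Fos and Jun, the founding AP-1 subunits, did not pass the test. Fos stood at 1.39 and 0.754 TPM in deficient basophils against 0.841 and 0.364 TPM in deficient pre-Baso, and at 1.36 and 0 TPM in control basophils against 0.523 and 0.0761 TPM in control pre-Baso. The values overlapped and rested on few reads, at most 1.27 assigned kilobases in a library (log2 difference 0.37 ± 0.42 in deficient mice, adjusted p = 0.61, and 0.26 ± 0.42 in control mice, adjusted p = 0.691). Jun stood at 4.78 and 6.35 TPM in deficient basophils against 1.79 and 4.58 TPM in deficient pre-Baso, and at 6.05 and 1.76 TPM in control basophils against 2.66 and 1.55 TPM in control pre-Baso. Its 2 control basophil libraries lay far apart, and the stages overlapped in control but not in deficient mice (log2 difference 0.72 ± 0.47 in deficient mice, adjusted p = 0.347, and 0.53 ± 0.47 in control mice, adjusted p = 0.453). The small MAF proteins Maff and Mafk, partners of AP-1 and CNC factors, had differences of 0.32 and 0.53 in deficient mice and 0.41 and 0.32 in control mice, none called. Fosb was at 0.259 to 0.374 TPM in the 4 deficient libraries and 0.0287 to 0.0682 TPM in the 4 control libraries, and Atf3 was at 0 in all 4 pre-Baso libraries and at most 0.572 TPM in basophils. Neither was tested. Fosb rested on at most 0.765 assigned kilobases in a library, and all of its TPM in all 8 libraries came from a transcript annotated as retaining an intron.

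Among EGR, NR4A and other transcription factors, Myc, which drives growth and ribosome synthesis, was the 1 of 3 tested that rose. That count cannot be set apart from the shares of all genes tested that rose, 6.79% in deficient and 12.6% in control mice. It stood at 10.8 and 15.6 TPM in deficient basophils against 5.39 and 5.99 TPM in deficient pre-Baso, and at 8.77 and 10.3 TPM in control basophils against 4.11 and 5.72 TPM in control pre-Baso. The stages did not overlap (log2 difference 1.07 ± 0.22 in deficient mice, adjusted p = 0.0228, and 0.84 ± 0.22 in control mice, adjusted p = 0.0277). Nr4a1, an orphan nuclear receptor used as a sign of recent antigen receptor signals in lymphocytes, was at 0 in all 4 pre-Baso libraries. In basophils it was at 1.41 and 0.345 TPM in deficient mice and 1.06 and 0 TPM in control mice and was not called. Csrnp1 was at 0.509 to 1.43 TPM throughout. Egr1 did not exceed 0.908 TPM, and Egr2, Egr3, Nr4a2 and Nr4a3 did not exceed 0.404 TPM.

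All 3 tested KLF zinc finger factors rose in both genotypes, though Klf2 had passed the filter through basophil libraries only. Over all genes tested, 6.79% rose in deficient and 12.6% in control mice. Klf6 was the most abundant and stood at 18.3 and 20.2 TPM in deficient basophils against 7.35 and 10.7 TPM in deficient pre-Baso, and at 25.2 and 20.7 TPM in control basophils against 7.96 and 9.41 TPM in control pre-Baso. No basophil library was as low as any pre-Baso library (log2 difference 1.03 ± 0.21 in deficient mice, adjusted p = 0.0202, and 1.30 ± 0.21 in control mice, adjusted p = 0.00373). Klf2, a factor of quiescence in lymphocytes and endothelium, stood at 3.89 and 1.88 TPM in deficient basophils against 0.658 and 0.491 TPM in deficient pre-Baso, and at 5.25 and 3.47 TPM in control basophils against 0.268 and 0.428 TPM in control pre-Baso. The pre-Baso libraries were close to the limit of detection, with at least 0.306 assigned kilobases each (log2 difference 1.25 ± 0.29 in deficient mice, adjusted p = 0.031, and 1.98 ± 0.29 in control mice, adjusted p = 0.00264). Klf10, a target of TGF-beta signals, stood at 9.6 and 6.24 TPM in deficient basophils against 3.15 and 3.88 TPM in deficient pre-Baso, and at 14.5 and 11 TPM in control basophils against 4.42 and 4.82 TPM in control pre-Baso. The highest pre-Baso library was below the lowest basophil library (log2 difference 0.96 ± 0.23 in deficient mice, adjusted p = 0.0341, and 1.28 ± 0.23 in control mice, adjusted p = 0.00615). Klf4 was not tested and was highest in the first control basophil library, at 0.567 TPM.

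NF-kappaB feedback genes included the most abundant member of all. Nfkbia, which encodes I-kappaB alpha, the inhibitor that holds NF-kappaB in the cytoplasm and is itself an NF-kappaB target, stood at 121 and 97.4 TPM in deficient basophils against 71.3 and 62.5 TPM in deficient pre-Baso, and at 144 and 135 TPM in control basophils against 71 and 84.6 TPM in control pre-Baso. Stages did not overlap in either genotype (log2 difference 0.69 ± 0.16 in deficient mice, adjusted p = 0.0335, and 0.84 ± 0.16 in control mice, adjusted p = 0.00883). Tnfaip3, the ubiquitin-editing enzyme A20 that ends NF-kappaB signals, stood at 5.33 and 3.04 TPM in deficient basophils against 1.15 and 1.49 TPM in deficient pre-Baso, and at 8.89 and 6.69 TPM in control basophils against 1.44 and 1.72 TPM in control pre-Baso. It was higher in every basophil library than in any pre-Baso library (log2 difference 1.13 ± 0.25 in deficient mice, adjusted p = 0.028, and 1.76 ± 0.25 in control mice, adjusted p = 0.00237). Transcripts annotated as retaining an intron took 70.0% and 100% of its TPM in deficient basophils, 19.9% and 85.2% in control basophils, and 66.4% to 97.8% in pre-Baso. With transcripts annotated as protein-coding alone, Tnfaip3 was called in neither genotype (log2 difference 0.45 ± 0.72 in deficient mice, adjusted p = 0.729, and 1.65 ± 0.72 in control mice, adjusted p = 0.157). Nfkbie, I-kappaB epsilon, was called in control mice alone (log2 difference 0.56 ± 0.18 in deficient mice, adjusted p = 0.0799, and 0.84 ± 0.18 in control mice, adjusted p = 0.0117), and Rel, the NF-kappaB subunit c-Rel, in deficient mice alone (log2 difference 0.63 ± 0.17 in deficient mice, adjusted p = 0.047, and 0.51 ± 0.17 in control mice, adjusted p = 0.0591). Nfkbid and Nfkbiz, nuclear I-kappaB proteins, were called in neither, with log2 differences of 0.05 and 0.47 in deficient and 0.24 and 0.47 in control mice.

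Among 4 tested MAP kinase phosphatases, 1 rose in deficient mice (6.79% of all genes tested) and 3 in control mice (12.6% of all genes tested). The count in deficient mice cannot be set apart from that share. Dusp5, which acts on nuclear ERK and carries a pair of CArG boxes in its window, stood at 4.84 and 5.65 TPM in deficient basophils against 2.47 and 2.61 TPM in deficient pre-Baso, and at 4.33 and 6.25 TPM in control basophils against 2.1 and 2.21 TPM in control pre-Baso. It was called in both genotypes (log2 difference 0.81 ± 0.19 in deficient mice, adjusted p = 0.0345, and 0.98 ± 0.19 in control mice, adjusted p = 0.00959). Dusp6, the cytoplasmic ERK phosphatase and the most abundant of the group, stood at 18.5 and 16.3 TPM in deficient basophils against 11.4 and 8.49 TPM in deficient pre-Baso, and at 24.2 and 17 TPM in control basophils against 11.8 and 12 TPM in control pre-Baso. It was called in control mice (log2 difference 0.76 ± 0.21 in deficient mice, adjusted p = 0.0566, and 0.72 ± 0.21 in control mice, adjusted p = 0.0414). Dusp1, which acts on p38 and JNK, stood at 4.05 and 2.73 TPM in deficient basophils against 2.34 and 2.35 TPM in deficient pre-Baso, and at 4.51 and 3.14 TPM in control basophils against 1.06 and 1.07 TPM in control pre-Baso. The 2 control pre-Baso libraries were the lowest of the 8 (log2 difference 0.38 ± 0.22 in deficient mice, adjusted p = 0.3, and 1.21 ± 0.22 in control mice, adjusted p = 0.00655). Transcripts annotated as retaining an intron took 88.8% and 0% of its TPM in deficient basophils, 7.38% and 58.8% in control basophils, and 100% in all 4 pre-Baso libraries. With transcripts annotated as protein-coding alone, Dusp1 was called in neither genotype (log2 difference 1.22 ± 0.53 in deficient mice, adjusted p = 0.189, and 1.78 ± 0.53 in control mice, adjusted p = 0.058). Dusp2 was at 0.260 to 1.997 TPM, with stages that overlapped in control mice, and Dusp10 was not tested.

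Of the IER genes, small intronless or nearly intronless responders, Ier2 rose in both genotypes and Ier5 in deficient mice. Ier5 had passed the filter through basophil libraries only. Ier2 stood at 95.7 and 103 TPM in deficient basophils against 51.3 and 57.8 TPM in deficient pre-Baso, and at 121 and 74.2 TPM in control basophils against 49.6 and 58.5 TPM in control pre-Baso. It was high at both stages (log2 difference 0.86 ± 0.22 in deficient mice, adjusted p = 0.046, and 0.81 ± 0.22 in control mice, adjusted p = 0.0346). Ier3, which limits ERK dephosphorylation and cell death, stood at 59.7 and 42.3 TPM in deficient basophils against 49.5 and 30.2 TPM in deficient pre-Baso, and at 81.2 and 48.3 TPM in control basophils against 39.2 and 41.8 TPM in control pre-Baso. Stages overlapped in deficient mice and not in control mice, and the difference was not called (log2 difference 0.37 ± 0.30 in deficient mice, adjusted p = 0.469, and 0.62 ± 0.30 in control mice, adjusted p = 0.182). Ier5 was at 1.49 to 2.02 TPM in basophils and 0.465 to 0.798 TPM in pre-Baso (log2 difference 0.90 ± 0.20 in deficient mice, adjusted p = 0.0275, and 0.54 ± 0.20 in control mice, adjusted p = 0.0831).

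Among 6 tested stress, kinase and other regulators, 2 rose in deficient mice (6.79% of all genes tested) and 4 in control mice (12.6% of all genes tested). Gadd45a, a sensor of genotoxic stress that binds stress-activated kinases, was at 8.67 to 13.0 TPM in basophils and 4.37 to 5.32 TPM in pre-Baso (log2 difference 1.04 ± 0.21 in deficient mice, adjusted p = 0.0204, and 1.05 ± 0.21 in control mice, adjusted p = 0.00952). Ppp1r15a, GADD34, which directs the phosphatase that restores translation after stress, was at 2.78 to 4.11 TPM in basophils and 0.833 to 1.58 TPM in pre-Baso (log2 difference 1.18 ± 0.21 in deficient mice, adjusted p = 0.0129, and 0.87 ± 0.21 in control mice, adjusted p = 0.0188). Gadd45b and the kinase Sgk1 passed in control mice (0.77 ± 0.24, adjusted p = 0.0492, and 1.58 ± 0.34, adjusted p = 0.013) and missed it in deficient mice (0.38 ± 0.24, adjusted p = 0.332, and 1.24 ± 0.34, adjusted p = 0.0533). Rhob, a small GTPase, and Trib1, a pseudokinase that binds C/EBP proteins, were called in neither genotype. Per3, a clock gene with 2 NFIL3 elements in its window, was at 0.168 and 0.588 TPM in deficient basophils against 0.362 and 0.274 TPM in deficient pre-Baso, and at 0.279 and 0.165 TPM in control basophils against 0.632 and 0.329 TPM in control pre-Baso. Both control basophil libraries were lower than both control pre-Baso libraries, the other groups overlapped, and the gene was not tested.

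Of the surface and G protein regulators, Rgs2 rose in both genotypes. Rgs2, which speeds the shut-off of Gq signals, stood at 52.3 and 44.9 TPM in deficient basophils against 16.3 and 22.5 TPM in deficient pre-Baso, and at 65.2 and 52.8 TPM in control basophils against 15.5 and 18 TPM in control pre-Baso. The stages were separate (log2 difference 1.30 ± 0.20 in deficient mice, adjusted p = 0.00904, and 1.75 ± 0.20 in control mice, adjusted p = 0.000974). Cd69, a lectin used as an early activation marker of leukocytes, was at 7.23 to 10.1 TPM in basophils and 5.19 to 7.49 TPM in pre-Baso and was not called. Rgs1 was at 1.29 to 2.42 TPM in basophils and 1.36 to 1.64 TPM in pre-Baso and had the lowest difference of all tested members in deficient mice, at -0.01. Transcripts annotated as retaining an intron took 40.1% to 100% of the TPM of Rgs1 in each library, and 75.0% over all libraries.

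Between genotypes, no member passed the test. In pre-Baso, 0 of 40 tested members were called (limma; smallest adjusted p = 1, 1 with an unadjusted p under 0.05), where 0.0639% of all genes tested were called and 4.38% had an unadjusted p under 0.05. In basophils, 0 of 40 were called (smallest adjusted p = 0.381, 4 with an unadjusted p under 0.05), where 0.0560% of all genes were called and 8.51% had an unadjusted p under 0.05. Over the mean of both populations, 0 were called and 7 had an unadjusted p under 0.05, where 0.0879% of all genes were called and 7.44% had one. The medians of the members were -0.07 in pre-Baso, -0.11 in basophils and -0.05 over both, against -0.04, -0.01 and -0.02 over all genes tested. The median in basophils was 0.02 without the first basophil library of both genotypes.

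**Figure D4:**
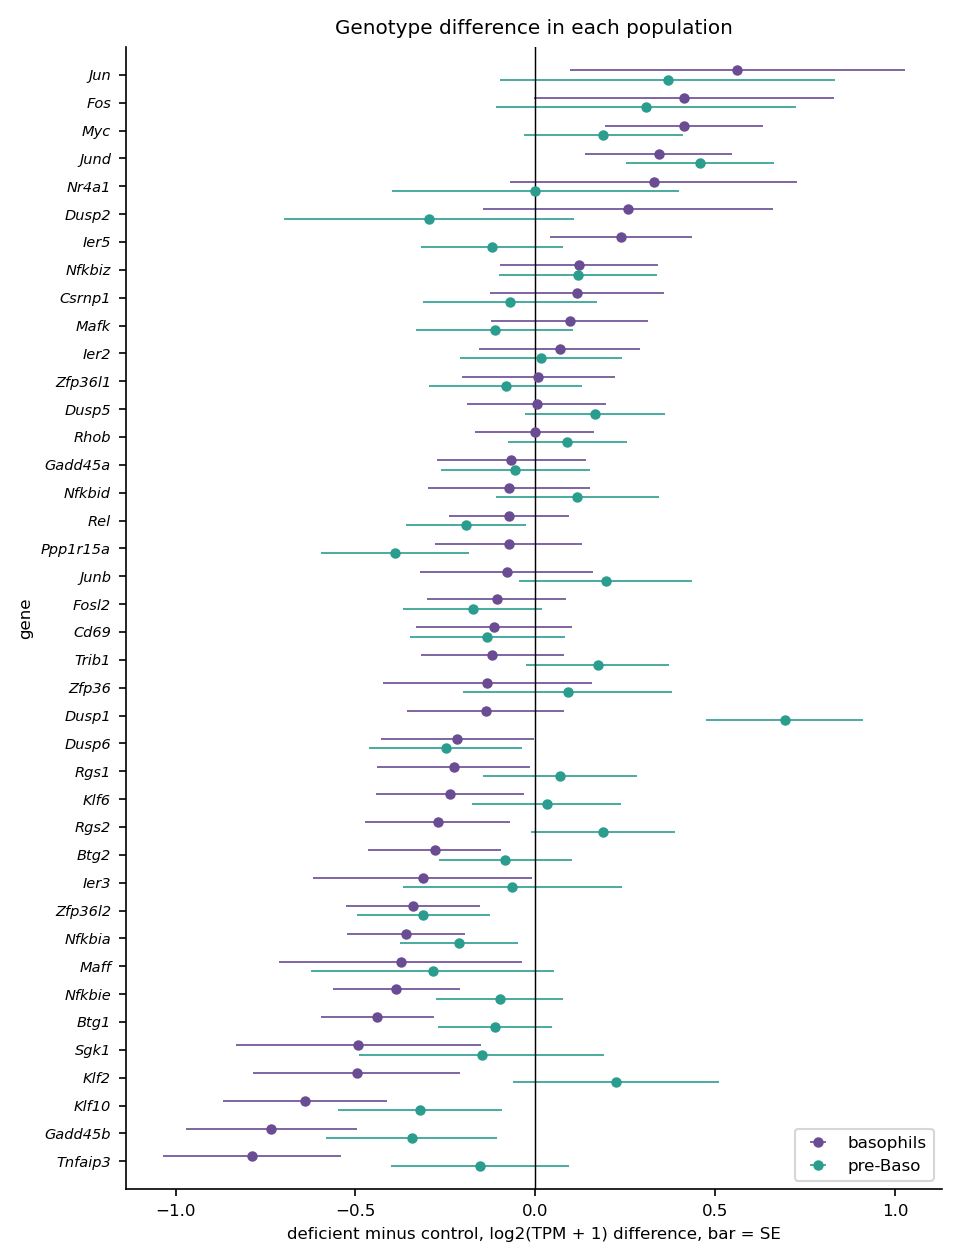
Difference between deficient and control libraries on the log2(TPM + 1) scale for each of the 40 tested members, with its SE as a bar, in basophils (upper point) and pre-Baso (lower point). Points scatter on both sides of 0, from -0.79 (Tnfaip3) to 0.56 (Jun) in basophils and from -0.39 (Ppp1r15a) to 0.69 (Dusp1) in pre-Baso.

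The 4 members with an unadjusted p under 0.05 between genotypes in basophils were Tnfaip3, Gadd45b, Klf10 and Btg1, none of them called. Tnfaip3 stood at 5.33 and 3.04 TPM in deficient basophils against 8.89 and 6.69 TPM in control basophils (log2 difference -0.79 ± 0.25, unadjusted p = 0.0124, adjusted p = 0.381), most of it from transcripts annotated as retaining an intron in 3 of these 4 libraries. Gadd45b stood at 2.94 and 4.84 TPM in deficient basophils against 6.91 and 7.04 TPM in control basophils (log2 difference -0.73 ± 0.24, unadjusted p = 0.0142, adjusted p = 0.399). Klf10 stood at 9.6 and 6.24 TPM in deficient basophils against 14.5 and 11 TPM in control basophils (log2 difference -0.64 ± 0.23, unadjusted p = 0.0218, adjusted p = 0.464). In each of these the groups did not overlap. Btg1 was the most even, at 24.3 and 25.2 TPM in deficient basophils against 34.9 and 32.9 TPM in control basophils (log2 difference -0.44 ± 0.16, unadjusted p = 0.0227, adjusted p = 0.47). In the same libraries monocyte and macrophage markers were at 832 and 412 TPM in deficient basophils against 913 and 355 TPM in control basophils, and eosinophil markers at 194 and 31.0 TPM in deficient basophils against 2665 and 35.4 TPM in control basophils. Their part was not tested.

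Groups of 2 against 2 libraries did not overlap in 14 of 40 members in basophils. In 11 both deficient basophil libraries were lower than both control ones (21.4% of all genes tested): Zfp36l2, Klf6, Klf10, Btg1, Btg2, Nfkbia, Nfkbie, Tnfaip3, Gadd45b, Rel and Rgs2. In 3 they were higher (17.2% of all genes): Jund, Ier5 and Myc. In pre-Baso, 7 members were lower in both deficient libraries (19.3% of all genes) and 6 were higher (11.2% of all genes). Lower in both populations were Zfp36l2, Klf10, Gadd45b and Rel, and Jund was higher in both. The share of all genes tested that lay apart in the same direction in both populations was not counted. These names therefore describe the libraries only. The Jund values in pre-Baso were 10.6 and 13.8 TPM in deficient mice against 9.35 and 7.82 TPM in control mice (log2 difference 0.46 ± 0.21, unadjusted p = 0.0546, adjusted p = 1).

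Dusp1 was the member whose genotype difference varied most between the populations. In pre-Baso it stood at 2.34 and 2.35 TPM in deficient libraries against 1.06 and 1.07 TPM in control libraries (log2 difference 0.69 ± 0.22, unadjusted p = 0.0121, adjusted p = 1), all of it from transcripts annotated as retaining an intron. In basophils it stood at 4.05 and 2.73 TPM in deficient libraries against 4.51 and 3.14 TPM in control libraries (log2 difference -0.14 ± 0.22, unadjusted p = 0.543, adjusted p = 0.922). The change of the genotype effect with stage was -0.83 ± 0.31 (SE; unadjusted p = 0.0259, adjusted p = 0.897), and -0.57 ± 0.75 with transcripts annotated as protein-coding alone (unadjusted p = 0.475, adjusted p = 0.98). It was the 1 member of 40 with an unadjusted p under 0.05 in that contrast, where 0 genes were called and 5.51% of all genes had such a p (limma). For Klf2 the same quantity was -0.72 ± 0.41 and for Tnfaip3 -0.63 ± 0.35, with adjusted p-values of 0.931 and 0.930. Over the 40 tested members that quantity was positive in 16 and negative in 24, against 53.3% positive over all genes tested, and it passed the test in 0 members.

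The signalling inputs of these genes were followed in lists of other genes, whose counts stand beside the shares of all genes tested given above (6.79% rose and 4.11% fell in deficient mice; 12.6% rose and 10.0% fell in control mice). Of 31 tested genes for MAP kinases, SRF and CREB, 10 rose in basophils and 0 fell in both deficient and control mice (median 0.40 and 0.49). Map3k1, an activator of JNK kinases, stood at 10.4 and 9.36 TPM in deficient basophils against 2.06 and 3.26 TPM in deficient pre-Baso, and at 13.3 and 12.3 TPM in control basophils against 3.87 and 3.31 TPM in control pre-Baso (log2 difference 1.59 ± 0.20 in deficient mice, adjusted p = 0.00505, and 1.59 ± 0.20 in control mice, adjusted p = 0.00141). Mapk14, p38 alpha, and Mrtfa, a coactivator of SRF, also rose (log2 difference 1.35 ± 0.16 in deficient mice, adjusted p = 0.0047, and 1.53 ± 0.16 in control mice, adjusted p = 0.000683 for Mapk14; log2 difference 1.27 ± 0.22 in deficient mice, adjusted p = 0.0126, and 1.42 ± 0.22 in control mice, adjusted p = 0.00328 for Mrtfa). Of 16 tested NF-kappaB core genes, 3 rose in deficient mice, and 3 rose and 1 (Traf2) fell in control mice. The counts in control mice are close to the shares of all genes. Rela, the p65 subunit, rose modestly (log2 difference 0.66 ± 0.17 in deficient mice, adjusted p = 0.0402, and 0.65 ± 0.17 in control mice, adjusted p = 0.026).

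A second list of 52 immediate early and feedback genes outside the 50 had 32 tested genes. Of these, 10 rose and 0 fell in deficient mice (6.79% of all genes rose), and 13 rose and 1 (Cebpb) fell in control mice (12.6% of all genes rose). The medians were 0.63 and 0.58, against 0.10 and 0.08 over all genes tested. Txnip, an inhibitor of thioredoxin that responds to glucose, was the most abundant, at 259.9 and 190.2 TPM in deficient basophils against 73.5 and 72.4 TPM in deficient pre-Baso, and at 346 and 324 TPM in control basophils against 79.8 and 93.1 TPM in control pre-Baso (log2 difference 1.59 ± 0.17 in deficient mice, adjusted p = 0.00469, and 1.94 ± 0.17 in control mice, adjusted p = 0.000416). Of the deadenylases and decay factors that work with ZFP36 and BTG proteins, 0 of 19 passed in deficient mice (limma), and in control mice 1 rose (Cnot6l) and 1 fell (Cnot9). The median of that list was 0.14 in deficient and -0.07 in control mice.

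Messages known to carry AU-rich elements, which ZFP36 proteins bind, were followed as a further list. Of 12 tested, 6 rose and 1 (Bcl2) fell in deficient mice (6.79% of all genes rose and 4.11% fell), and 9 rose and 1 (Bcl2) fell in control mice (12.6% of all genes rose and 10.0% fell). The chemokine Ccl4 stood at 97.3 and 97.3 TPM in deficient basophils against 24.7 and 33.6 TPM in deficient pre-Baso, and at 145 and 112 TPM in control basophils against 18.1 and 26.5 TPM in control pre-Baso (log2 difference 1.72 ± 0.23 in deficient mice, adjusted p = 0.00577, and 2.48 ± 0.23 in control mice, adjusted p = 0.000477). Il4, the main cytokine of basophils, rose as well (log2 difference 0.77 ± 0.15 in deficient mice, adjusted p = 0.0186, and 1.30 ± 0.15 in control mice, adjusted p = 0.00099). Ier3, a member, and Pim1 and Mcl1 of the second list are also on this list. In the genotype contrasts 0 genes of the lists of this and the preceding 2 paragraphs were called in limma.

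Heat shock genes also respond to handling. The list held 13 genes, of which Hspa1a, Hspa1b, Hspb1 and Dnajb4, named here because the filter left them out, were not tested. Of 9 tested, 0 rose and 1, Hsp90aa1, fell in basophils of both genotypes (log2 difference -1.03 ± 0.17 in deficient mice, adjusted p = 0.0101, and -0.81 ± 0.17 in control mice, adjusted p = 0.0105). Of all genes tested, 6.79% rose and 4.11% fell in deficient mice, and 12.6% rose and 10.0% fell in control mice. Counts among 9 genes are too small to set apart from these shares. The list summed to 203 and 199 TPM in deficient basophils and 211 and 172 TPM in control basophils, against 239 and 197 TPM in deficient pre-Baso and 211 and 232 TPM in control pre-Baso. Whether handling changed the members was not tested.

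**Figure D5:**
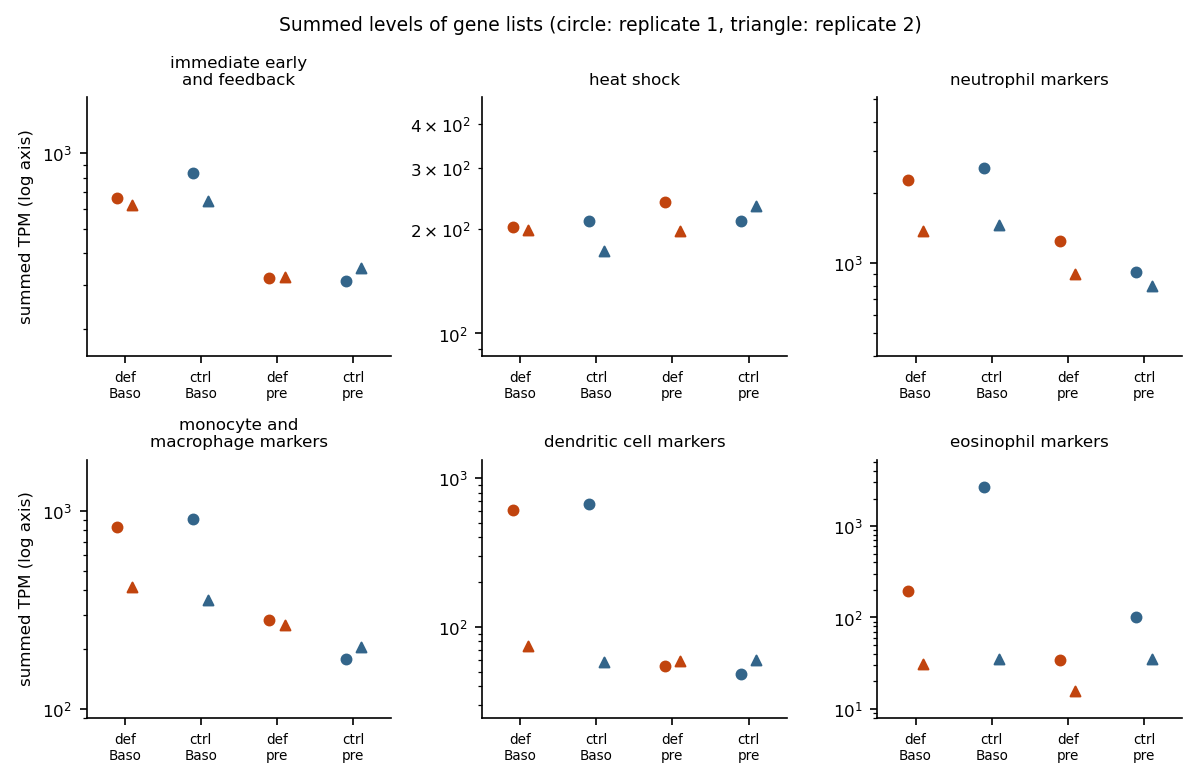
Summed TPM of the members, of heat shock genes and of marker lists of 4 other cell types in each library, on log axes; columns are deficient (def) and control (ctrl) basophils (Baso) and deficient and control pre-Baso (pre), deficient in orange and control in blue. The members lie at 625 to 836 TPM in basophils and 311 to 350.4 TPM in pre-Baso, and the first basophil libraries (circles) hold the most dendritic cell marker RNA, 609 and 667 TPM.

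The members were short genes. In the transcript with the highest summed TPM, the 40 tested members had a median of 3 exons and a genomic span of 4.82 kilobases, against 8 exons and 18.3 kilobases for the 9017 protein-coding genes tested, and 75.0% had 4 exons or fewer, against 24.4%. The length of that spliced transcript had a median of 2648 bases in the members and 2757 bases in those genes. Transcripts annotated as retaining an intron exist for 15 tested members and took part of the TPM of 14, with a median share of 22.6% over the 15, against 11% in the 5618 protein-coding genes tested that have one. With transcripts annotated as protein-coding alone, chosen as an alternative after these shares were seen, 14 of 38 members were called in deficient mice and 19 of 38 in control mice, with medians of 0.85 and 0.84. Calls over all genes tested fell at that setting as well, with the counts in the last section, so fewer calls were not particular to the members. At that setting Zfp36 was called in both genotypes. Calls were lost for Zfp36l1, Ier2, Klf2, Klf10, Nfkbia, Tnfaip3 and Gadd45a in deficient mice and for Ier2, Dusp1, Dusp6, Nfkbie, Tnfaip3 and Gadd45b in control mice. Among these, Zfp36l1, Ier2, Klf2, Klf10 and Dusp6 have no transcript annotated as retaining an intron. Such transcripts took 1.04% of the TPM of Nfkbia over all libraries. The cause of the lost calls was not tested.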

How the data were processed

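RNA was measured in 8 libraries of 4 groups (2 populations of 2 genotypes, 2 libraries each). Per the labels' protocols, RNA was extracted with TRIzol LS and Direct-zol kits and sequenced from SMARTER mRNA libraries. The authors used HISAT2 and mm10 (per the submitters' processing notes) and estimated annotated transcripts of Ensembl release 101 with StringTie 2.1.4, per the file headers. The deposited values used are TPM per transcript and mean coverage, per the file headers; they hold no read counts, and no strand option is named, so antisense partners cannot be told apart. Genes annotated as microRNA took 57.4% to 62.8% of TPM and protein-coding genes 18.7% to 22.4%.

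TPM was summed per gene by the name in the files. Genes at 1 TPM or more in at least 2 libraries (12511) were tested with limma 3.58.1 in R 4.3.3 on log2(TPM + 1), with 1 mean per group over all 8 libraries (4 residual degrees of freedom), a variance trend and Benjamini-Hochberg adjustment within each of 6 contrasts; an adjusted p under 0.05 made a call. The p-values measure the spread between 2 libraries per group. The fit was tested on simulated data. Depth per gene is coverage times transcript length, summed. Gene and transcript types came from GENCODE M21. All members may be named; other genes were named as the called and most abundant of fixed lists, with exceptions stated. The members and lists were chosen with earlier results of these data known. Replicate numbers did not meet the rule for pairing (correlations of deviations -0.05 to 0.20, over 0.1 only between the 2 basophil groups, whose first libraries both held more RNA of other cell types). Alternatives were other scalings, pseudocounts, filters and fits, each library left out, and 2 chosen after seeing the data.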

Additional observations from a re-analysis of the deposited data

How the results depend on the processing

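No member called between stages changed direction in any alternative, and in the genotype contrasts and the interaction 0 members were called in every alternative run. With all 8 libraries, members called between stages numbered 21 in deficient and 24 in control mice. With other scalings, pseudocounts, robust moderation and a replicate block they numbered 18 to 23 in deficient and 23 to 25 in control mice; the replicate block itself gave 21 and 23. In deficient mice they fell to 5 of 50 with no filter on low values and 10 with only the compared groups fitted, and to 0 without the first basophil library of both genotypes, where 12 were called in control mice. Leaving out each library in turn gave 0 to 21 in deficient and 14 to 22 in control mice. The cause of these losses was not tested, except that a fit with fewer libraries has fewer degrees of freedom.

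Genes called in pre-Baso between genotypes numbered 8, and 5 after rescaling to protein-coding genes, 23 with no filter, 3 with only the compared groups, 3 without the first basophil library of both genotypes, and 5 to 9 without single libraries. In basophils they numbered 7, and 14, 16 (pseudocount 0.1), 18, 4, 11 (protein-coding transcripts only) and 6 to 17. Over both populations they numbered 11, and 19 with a pseudocount of 0.1, 5 with no filter, 17 with at least 5 TPM, 7 with the replicate block, 19 with robust moderation and 7 to 11 without single libraries. For the interaction they numbered 0, and 2 with a pseudocount of 0.1, 1 without the first basophil library of both genotypes and 0 to 2 without single libraries.

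Between stages in control mice, 2832 genes were called, against 1516 with no filter, 1757 with protein-coding transcripts only, 1032 without the first basophil library of both genotypes and 1397 to 2651 without single libraries. In deficient mice, 1363 were called, against 298, 741, 4 and 19 to 1237, and 562 with only the compared groups. Median-ratio scaling moved the median of all genes in that contrast by -0.13, and the members' median to 0.68. Members under 1 TPM rested on too few bases for any statement on change.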
